A study of Mus musculus with 12 samples.

Results

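The genes described here were those whose transcripts were lower with mutant p53 both when the mutant allele was endogenous and when it was transfected. The measurements were microarray transcript profiles of mouse pancreatic tumor cells. A probe set, the group of short probes that reports 1 transcript, was selected on 3 differences between group means of log2 values. The parental cells had to exceed the cells with endogenous R172H by at least 0.7, the parental cells had to exceed the cells with transfected R175H by at least 0.7, and the empty vector cells had to exceed the R175H cells by at least 0.7. The means of the parental and of the empty vector cells also had to be at least 6. Of the 18245 probe sets with 1 gene symbol and both means at or above 6, 176 passed, which is 0.965%. After 7 genes of sterol synthesis, glycolysis and hypoxia had been set aside by name, of which 3 passed with 4 probe sets, the members were 169 probe sets and 3 control probe sets of 120 genes, out of 34958 probe sets and 18194 genes with 1 symbol. Because these 3 differences chose the members, they are given below as values without a test.

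Cells came from pancreatic tumors of mice in which Pdx1-Cre, active in the pancreatic epithelial lineage, switched on LSL-K-ras G12D/+. The mt-CCs also carried LSL-Trp53 R172H/+, the mouse form of a common human p53 hotspot mutation, and the fl-CCs carried LSL-Trp53 fl/+, a conditional deletion allele that the sample labels call null. The other two groups were fl-CCs transfected with the empty vector pCB6+1 (fl-CCs + EV) or with human p53 R175H (fl-CCs + R175H), and only these were kept in G418, at 0.6 mg/ml. All cells grew in DMEM with 10% serum to 60% confluency, and each of the 4 groups had 3 arrays. Each genotype was 1 cell line, and whether the transfected cells were clones or pools was not stated. The spread between arrays, and every p-value, therefore measures the spread between cultures of a line and not between tumors. The effect of R172H cannot be told apart from other differences between the mt-CC and the fl-CC line. Replicates of a group correlated at 0.994 to 0.996 over all probe sets and arrays of different groups at 0.959 to 0.990. Epithelial markers fixed for these cells had a median log2 value of 11.7 in fl-CCs, 9.26 in mt-CCs, 11.6 in fl-CCs + EV and 11.4 in fl-CCs + R175H. Of the 10 fibroblast markers, 7 were under 5, a level near background, in fl-CCs and 6 in mt-CCs. The highest in mt-CCs was Col3a1, at 9.50 against 3.485 in fl-CCs. The medians of these markers were 4.22 in fl-CCs, 4.94 in mt-CCs, 4.24 in fl-CCs + EV and 4.37 in fl-CCs + R175H. Of the 7 leukocyte markers, 5 were under 5 in every group, with the highest in mt-CCs at 7.66. The part of other cells in the results was not tested. The transcript of Trp53 itself was not analysed here.

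p53 is a transcription factor that binds DNA as a tetramer, and hotspot mutants such as R172H and R175H lose most of that binding while the protein accumulates. The mutant protein is also known to bind other transcription factors, among them SREBP2, the master regulator of sterol synthesis, and SP1 and NF-Y, which occupy GC boxes and CCAAT boxes. The fl-CCs lack this protein, so both comparisons set cells with mutant p53 against cells with neither mutant nor functional p53.

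The members spanned several known functions rather than 1 pathway. Grouped by their known roles after their values had been seen, 82 of the 120 genes fell into 13 groups and 38 into none. The largest group held 13 transcription factors. Smaller groups held enzymes of sterol and lipid synthesis, metal handling proteins, desmosomal and keratin genes, epithelial secretory genes, growth factor receptors and enzymes of membrane lipids. Over the 120 genes, each represented by 1 probe set, fl-CCs exceeded mt-CCs by a median log2 difference of 1.64, with a range from 0.71 to 6.22 as measured. They exceeded fl-CCs + R175H by a median of 1.19, and fl-CCs + EV exceeded fl-CCs + R175H by a median of 1.34. A log2 difference of 1 is a doubling. A fall of a member denotes such a difference of group means and no test, and where 2 falls are given, the first runs from fl-CCs to mt-CCs and the second from fl-CCs + EV to fl-CCs + R175H. In mt-CCs, 18 of the 120 genes were under 5 in all arrays, as were 4 genes in fl-CCs + R175H. For these genes the fall is only known to be at least the distance from the higher mean to 5. With them at that bound, the 3 medians were 1.54, 1.16 and 1.31, and the largest fall to mt-CCs was at least 5.83, for Aldh1a1.

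**Figure D1:**
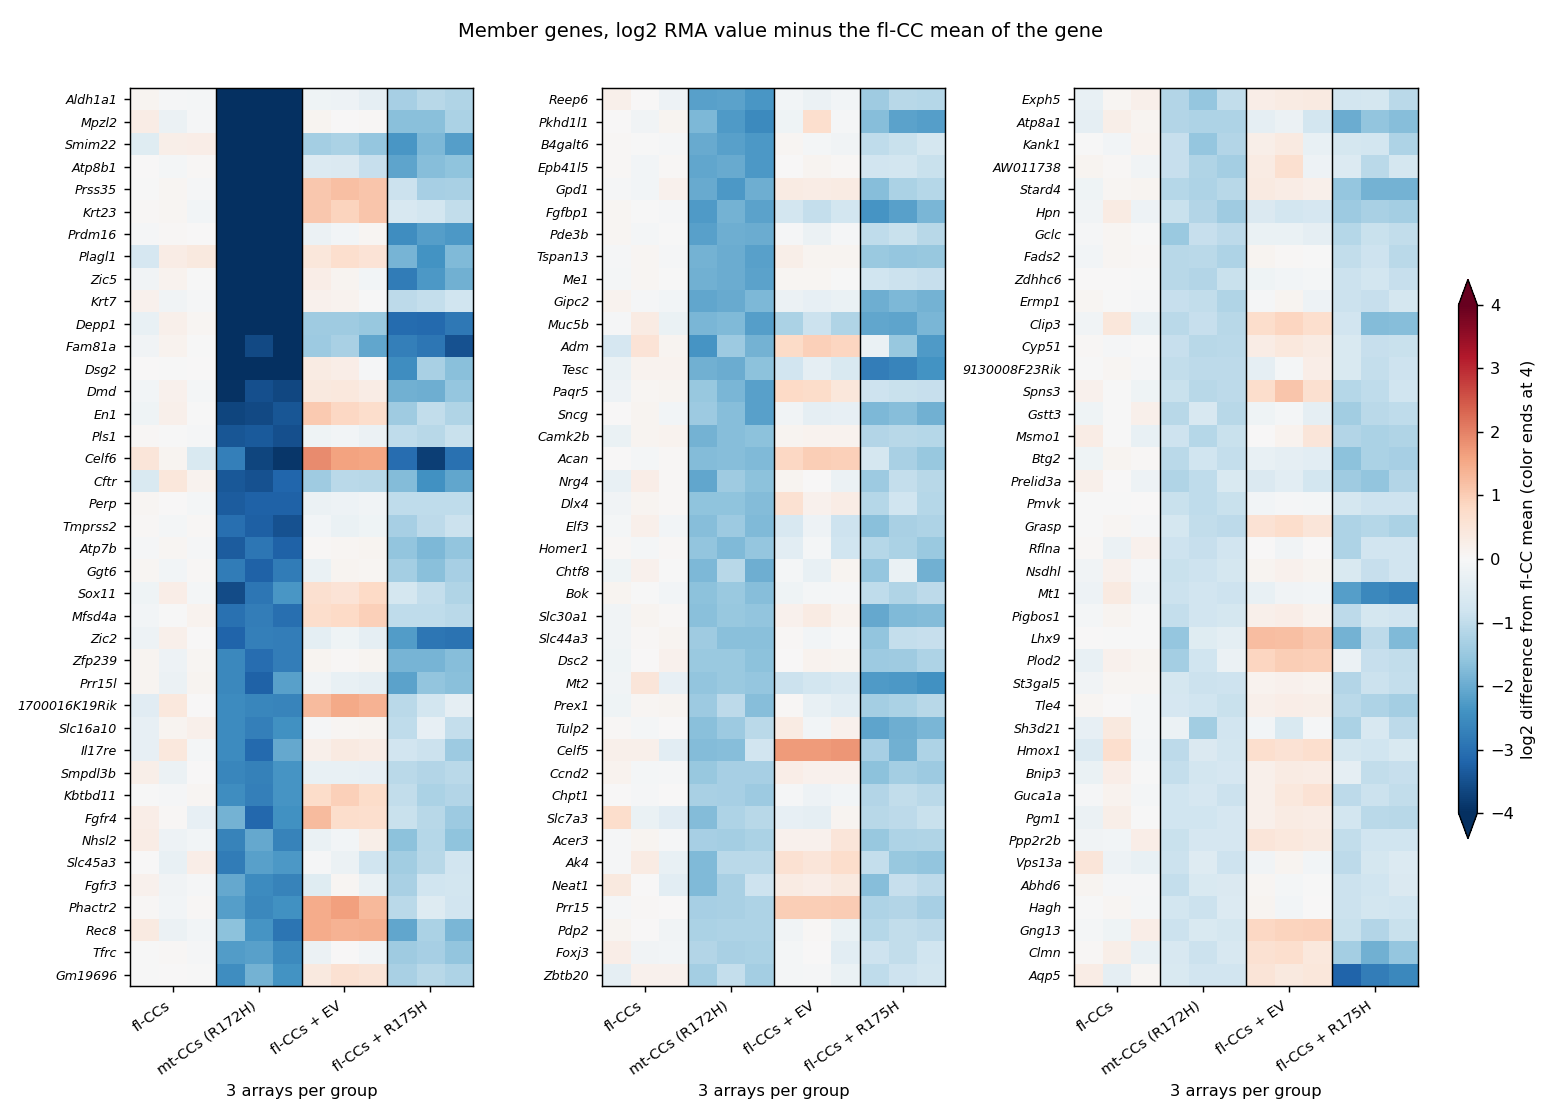
Heat map of the 120 member genes (rows, in order of the difference between fl-CCs and mt-CCs) in the 12 arrays (columns, 3 per group). Color gives the log2 RMA value minus the mean of fl-CCs for that gene and ends at 4 on either side. All genes are blue in the mt-CC and the R175H columns, as the choice of members requires, and the depth of blue differs between the groups: 49 genes fell by 2 or more in mt-CCs against 15 in fl-CCs + R175H, both measured from fl-CCs, or 42 and 14 with dim genes at their bound.

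The sequences upstream of 5 members from the metal and hypoxia groups are shown because they hold short elements that genes of those pathways are known to share. They are RefSeq promoters of GRCm38.p6, from 250 bases before to 50 after a transcription start, 5′ to 3′ on the strand of the gene. In the first 3, capitals mark TGCNCNC on either strand. These letters cover the core of the metal response element read by the zinc sensor MTF-1, with variants included.
Mt1, chr8:94178839-94179138, plus strand: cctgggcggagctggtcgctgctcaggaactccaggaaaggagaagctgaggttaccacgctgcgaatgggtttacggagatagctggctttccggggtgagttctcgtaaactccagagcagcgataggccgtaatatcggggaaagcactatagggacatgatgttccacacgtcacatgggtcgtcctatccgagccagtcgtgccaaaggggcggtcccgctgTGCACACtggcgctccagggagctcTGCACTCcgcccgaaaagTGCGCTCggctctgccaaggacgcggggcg
Mt2, chr8:94172368-94172667, plus strand: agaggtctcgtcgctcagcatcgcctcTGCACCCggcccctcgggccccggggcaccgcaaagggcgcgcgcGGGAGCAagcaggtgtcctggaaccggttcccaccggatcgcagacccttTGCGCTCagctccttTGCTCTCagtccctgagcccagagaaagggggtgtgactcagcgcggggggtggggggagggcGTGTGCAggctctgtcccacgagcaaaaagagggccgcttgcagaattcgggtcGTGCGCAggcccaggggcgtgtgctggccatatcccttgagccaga
Slc30a1, chr1:191906531-191906830, plus strand: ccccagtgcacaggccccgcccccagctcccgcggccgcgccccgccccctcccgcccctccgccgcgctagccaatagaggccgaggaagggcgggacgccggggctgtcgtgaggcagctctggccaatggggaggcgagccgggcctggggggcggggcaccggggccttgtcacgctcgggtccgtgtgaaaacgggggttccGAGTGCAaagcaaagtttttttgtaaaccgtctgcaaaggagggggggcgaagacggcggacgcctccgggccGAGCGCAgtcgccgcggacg
In the other two, capitals mark CACGTG, which holds ACGTG, the core bound by hypoxia-inducible factors, on both strands.
Bnip3, chr7:138909457-138909756, minus strand: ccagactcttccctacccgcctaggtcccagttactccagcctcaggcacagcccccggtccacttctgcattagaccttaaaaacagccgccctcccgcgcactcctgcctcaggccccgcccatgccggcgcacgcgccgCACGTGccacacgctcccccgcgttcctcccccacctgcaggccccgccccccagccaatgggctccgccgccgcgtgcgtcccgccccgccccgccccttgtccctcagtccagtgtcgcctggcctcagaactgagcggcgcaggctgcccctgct
Ak4, chr4:101419453-101419752, plus strand: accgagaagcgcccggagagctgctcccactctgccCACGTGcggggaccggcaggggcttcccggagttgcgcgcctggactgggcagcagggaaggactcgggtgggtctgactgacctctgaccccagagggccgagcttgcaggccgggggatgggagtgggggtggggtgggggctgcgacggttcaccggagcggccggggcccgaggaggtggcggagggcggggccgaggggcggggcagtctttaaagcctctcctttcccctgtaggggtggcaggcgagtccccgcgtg
Over all members the letters marked here were about as frequent as among expressed genes. Of the 120 genes, 89 matched 117 promoters, and TGCNCNC stood in 59.0% of them, against 51.0% of all 32851 promoters of the same length and 60.7% of the 10680 promoters of genes with means at or above 6. ACGTG stood in 23.9% of the member promoters, against 19.6% of all and 26.3% of those of expressed genes. The GC box GGGCGG stood in 65.0%, against 35.7% of all and 64.5% of those of expressed genes. CCAAT stood in 45.3%, against 37.4% of all and 37.8% of those of expressed genes. Other promoters of these pathways did not hold the letters. ACGTG was absent from the window of Adm and from 3 other promoters of Ak4. TCACNCCAC, a form of the sterol response element, was absent from the windows of Cyp51, Msmo1, Nsdhl, Pmvk and Fads2, and stood in 0.855% of the member promoters and 1.24% of all. Both strands were searched, and a match is a string of letters and not a binding site.

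By measured means, the members whose smallest difference was highest were led by Celf6, an RNA-binding regulator of splicing. Its log2 values were 7.84, 7.46 and 6.75 in fl-CCs, 4.63, 3.69 and 3.47 in mt-CCs, 9.23, 8.95 and 8.92 in fl-CCs + EV and 4.29, 3.60 and 4.38 in fl-CCs + R175H. All arrays with mutant p53 were thus under 5, and the falls were at least 2.35 from fl-CCs and at least 4.03 from fl-CCs + EV. Celf6 was also 1.68 ± 0.33 (SE) higher in fl-CCs + EV than in fl-CCs (limma, n = 3 arrays per group, adjusted p = 0.00539). Celf5, its paralog, read 7.36, 7.36 and 6.74 in fl-CCs and 5.43, 5.45 and 6.38 in mt-CCs. It read 8.87, 8.87 and 8.90 in fl-CCs + EV and 5.81, 5.23 and 5.93 in fl-CCs + R175H. The groups with mutant p53 did not overlap either control in this gene. The fall from fl-CCs + EV was 3.22 and that from fl-CCs to mt-CCs 1.40.

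**Figure D2:**
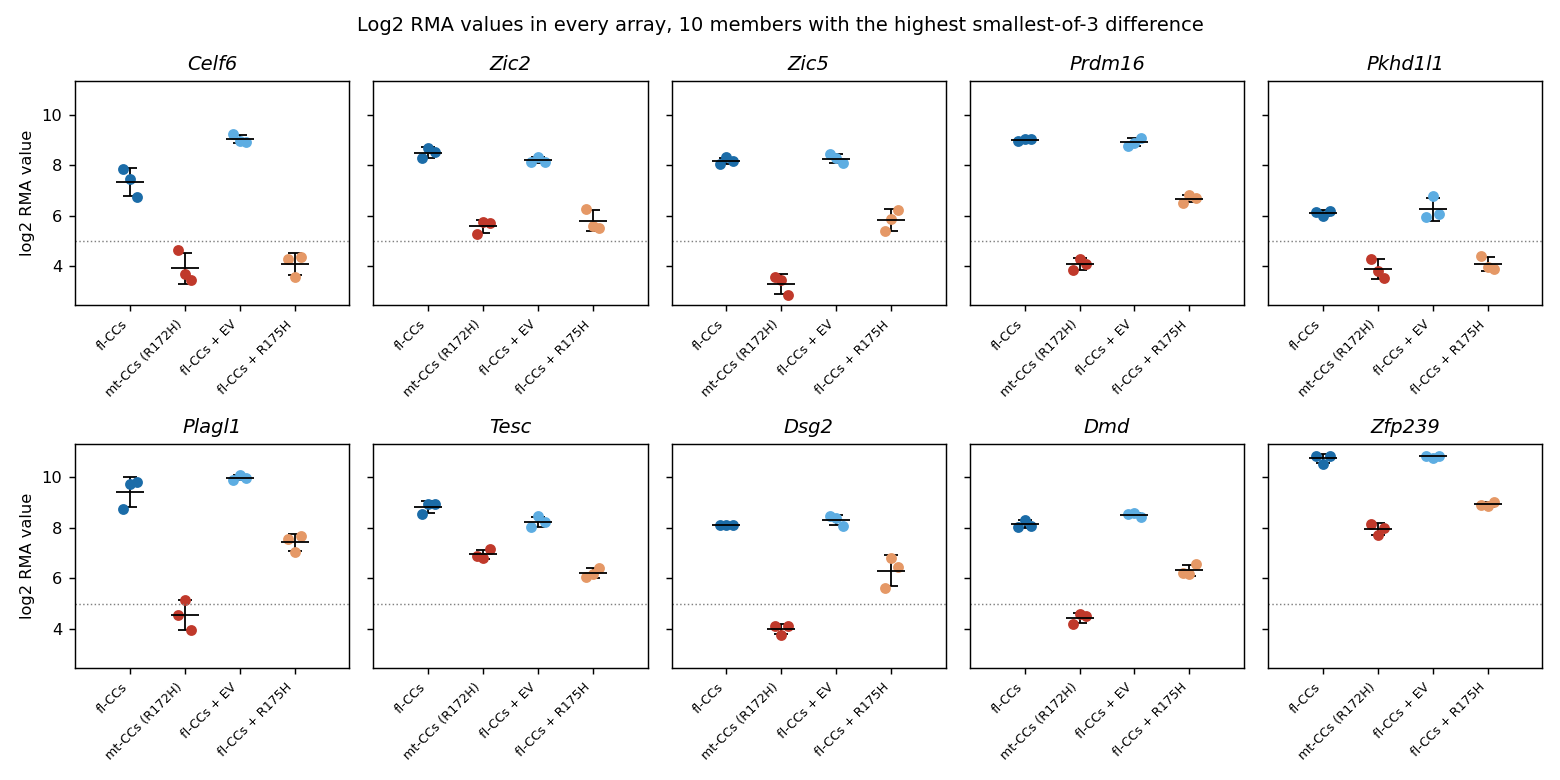
Log2 RMA values (vertical axis) of the 10 members with the highest smallest-of-3 difference, in every array of the 4 groups (points), with the group mean and its SD (black bars, n = 3). The dotted line at 5 marks the level taken as near background. In all 10 panels both groups with mutant p53 lie below both controls. The choice of members requires this of the means for all pairs but mt-CCs and fl-CCs + EV. In Zic5, Prdm16, Plagl1, Dsg2, Dmd and Zfp239 the mt-CCs lie below the R175H cells.

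Transcription factors made up the largest group, with falls from fl-CCs to mt-CCs that began at 0.79, for Tle4. Zic5, Prdm16 and En1 were under 5 in every mt-CC array, and their falls were at least 3.17, 4.005 and 1.57. Zic2 and Zic5 are adjacent genes on chromosome 14 that encode zinc finger factors of early neural development. Zic2 read 8.29, 8.70 and 8.51 in fl-CCs, 5.30, 5.75 and 5.72 in mt-CCs, 8.11, 8.33 and 8.12 in fl-CCs + EV, and 6.27, 5.60 and 5.54 in fl-CCs + R175H. Both mutants left Zic2 near the same level, with R175H cells 0.21 ± 0.19 above mt-CCs (adjusted p = 0.462 by limma). Zic5 read 8.04, 8.31 and 8.17 in fl-CCs and 8.44, 8.28 and 8.07 in fl-CCs + EV. It read 3.59, 3.45 and 2.86 in mt-CCs and 5.39, 5.89 and 6.23 in fl-CCs + R175H. At the probe set shown, Zic5 thus kept a level above 5 with R175H but not with R172H. The 2 mutant groups differed by 2.54 ± 0.22 (adjusted p = 2.2e-06 by limma) as measured and by at least 0.84 from the level of 5. The other Zic5 member probe set had means of 2.54 in mt-CCs and 4.99 in fl-CCs + R175H.

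Prdm16, a zinc finger regulator best known from brown fat and stem cells, read 8.95, 9.04 and 9.03 in fl-CCs, 3.86, 4.30 and 4.11 in mt-CCs, 8.78, 8.89 and 9.08 in fl-CCs + EV, and 6.52, 6.80 and 6.70 in fl-CCs + R175H. It had 3 member probe sets, and the one shown fell furthest in mt-CCs. Plagl1, an imprinted growth suppressor also called Zac1, read 8.75, 9.73 and 9.81 in fl-CCs and 4.56, 5.15 and 3.95 in mt-CCs. It read 9.89, 10.10 and 9.98 in fl-CCs + EV and 7.57, 7.03 and 7.68 in fl-CCs + R175H. The suffix of this Plagl1 probe set marks probes that can match other transcripts. As with Zic5, the R175H cells of both genes stood between the controls and the mt-CCs. R175H cells exceeded mt-CCs by 2.59 ± 0.12 for Prdm16 and by 2.87 ± 0.32 for Plagl1 (limma, adjusted p = 1.04e-08 and 1.82e-05), for Prdm16 by at least 1.68 from the level of 5. At the other two Prdm16 probe sets the difference was 1.42 ± 0.34 (adjusted p = 0.00595) and 0.20 ± 0.14 (adjusted p = 0.321), and at the other Plagl1 probe set 1.06 ± 0.21 (adjusted p = 0.00175), all by limma. Zfp239, another zinc finger gene, was bright everywhere, at 10.86, 10.54 and 10.83 in fl-CCs and 8.16, 7.71 and 7.98 in mt-CCs. It read 10.86, 10.77 and 10.85 in fl-CCs + EV and 8.89, 8.88 and 9.03 in fl-CCs + R175H.

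The homeobox gene Lhx9 and the SoxC factor Sox11 ran in opposite orders. Lhx9 read 6.42, 6.38 and 6.36 in fl-CCs, 4.85, 5.90 and 5.99 in mt-CCs, 7.63, 7.59 and 7.47 in fl-CCs + EV, and 4.50, 5.33 and 4.61 in fl-CCs + R175H. By group means it was thus lowest with R175H, although arrays of the 2 mutant groups overlapped. The difference between these groups did not pass the test when any of 4 single arrays was left out. Lhx9 was a member at 1 probe set of 4. Its brightest probe set was not a member and fell by 0.16 in mt-CCs and by 1.54 from EV to R175H. Sox11 read 8.07, 8.50 and 8.18 in fl-CCs, 4.66, 5.36 and 5.91 in mt-CCs, 8.90, 8.80 and 9.04 in fl-CCs + EV, and 7.56, 7.31 and 7.06 in fl-CCs + R175H. It was lowest with R172H, where R175H cells stood 2.0 ± 0.25 higher (adjusted p = 5.71e-05 by limma). Elf3, an ETS factor of epithelia, read 8.74, 9.02 and 8.72 in fl-CCs, 7.11, 7.36 and 7.07 in mt-CCs, 8.19, 8.62 and 7.99 in fl-CCs + EV, and 7.16, 7.54 and 7.59 in fl-CCs + R175H. Of the remaining factors, Dlx4, Tle4, Zbtb20 and Foxj3 fell by 0.79 to 1.65 in mt-CCs, and En1 by at least 1.57. For Zbtb20 and Foxj3 this rests on 1 probe set of 9 and 1 of 3. Their brightest probe sets were not members and fell by 0.45 and 0.32 in mt-CCs. From EV to R175H these fell by 0.13 and 0.10.

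Desmosomal and keratin members showed some of the largest falls with endogenous R172H. Dsg2, a desmosomal cadherin, read 8.13, 8.10 and 8.13 in fl-CCs, 4.14, 3.75 and 4.12 in mt-CCs, 8.46, 8.37 and 8.07 in fl-CCs + EV, and 5.63, 6.82 and 6.45 in fl-CCs + R175H. The fall in mt-CCs was at least 3.12, and R175H cells exceeded mt-CCs by 2.30 ± 0.24 (adjusted p = 1.07e-05 by limma) as measured and by at least 1.30 from the level of 5. Dsg2 had 6 member probe sets, and the one shown was the dimmest in fl-CCs. At its brightest the means were 10.24 in fl-CCs and 5.96 in mt-CCs. Its partner cadherin Dsc2 read 8.09, 8.29 and 8.46 in fl-CCs and 6.80, 6.79 and 6.63 in mt-CCs. It read 8.29, 8.44 and 8.38 in fl-CCs + EV and 6.81, 6.86 and 7.03 in fl-CCs + R175H. Dsc2 fell to nearly the same level with both mutants, with a difference between their falls of -0.07 ± 0.15 (adjusted p = 0.791 by limma).

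Keratin 7, a marker of ductal epithelium, read 13.14, 12.83 and 12.92 in fl-CCs, 8.49, 8.46 and 8.59 in mt-CCs, 13.12, 13.10 and 12.94 in fl-CCs + EV, and 11.91, 11.998 and 12.15 in fl-CCs + R175H. Krt7 therefore fell 4.45 with R172H and 1.04 with R175H. Krt23 read 9.86, 9.86 and 9.68 in fl-CCs, 4.53, 4.44 and 5.25 in mt-CCs, 10.87, 10.70 and 10.90 in fl-CCs + EV, and 9.15, 9.05 and 8.82 in fl-CCs + R175H. Perp, a p53 target that serves desmosome assembly, read 11.95, 11.90 and 11.79 in fl-CCs and 8.54, 8.63 and 8.64 in mt-CCs. It read 11.65, 11.68 and 11.75 in fl-CCs + EV and 10.87, 10.85 and 10.85 in fl-CCs + R175H. All of these genes fell further in mt-CCs. Of the 7 members in this group, 6 fell further in mt-CCs by the test of the difference, Dsc2 being the exception. Over all 120 member genes the share was 37.5%.

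The broader epithelial list did not follow its members in the transfected cells. Of the 50 measured genes of epithelial junctions and keratins, 5 were members. Of the other 45, 30 were lower in mt-CCs and 4 were higher (limma against fl-CCs, adjusted p at or under 0.05). In fl-CCs + R175H against fl-CCs + EV, 6 of them were lower and 9 higher. Among all 18193 genes tested, 17.7% were lower and 18.3% higher with R172H, against 12.1% and 13.0% with R175H. The median log2 difference over the list was -1.34 in mt-CCs and -0.05 in fl-CCs + R175H. The list counts of members in these 2 comparisons are fixed by how members were chosen.

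Genes of secretory epithelium and of surface proteolysis ran in both orders. Aqp5, a water channel of exocrine glands, read 10.37, 9.70 and 10.15 in fl-CCs, 9.46, 9.31 and 9.31 in mt-CCs, 10.57, 10.45 and 10.52 in fl-CCs + EV, and 6.87, 7.31 and 7.49 in fl-CCs + R175H. It stood only 0.71 lower with R172H, just inside the threshold, and 3.29 lower with R175H than with EV. Cftr, the chloride channel of ductal cells, read 8.45, 9.50 and 9.21 in fl-CCs and 5.67, 5.57 and 5.87 in mt-CCs. It read 7.62, 7.96 and 7.94 in fl-CCs + EV and 7.33, 6.62 and 6.98 in fl-CCs + R175H. Muc5b, a gel-forming mucin, read 8.29, 8.66 and 8.05 in fl-CCs, 6.50, 6.57 and 6.13 in mt-CCs, 7.07, 7.46 and 7.12 in fl-CCs + EV, and 6.27, 6.24 and 6.51 in fl-CCs + R175H. For Cftr and Muc5b the empty vector cells already lay below every fl-CC array. The protease-like gene Prss35 read 8.04, 8.13 and 8.03 in fl-CCs, 3.04, 2.72 and 3.04 in mt-CCs, 9.14, 9.26 and 9.19 in fl-CCs + EV, and 7.21, 6.73 and 6.77 in fl-CCs + R175H, so that its fall to mt-CCs was at least 3.06. Tmprss2 and Hpn, membrane serine proteases, fell by 3.26 and 1.15 in mt-CCs and by 0.89 and 0.70 from EV to R175H.

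Metal handling members fell in both settings, and both metallothioneins were lowest with R175H. Mt1 and Mt2, adjacent genes on chromosome 8, encode small cysteine-rich proteins that buffer zinc and copper. Mt1 read 10.90, 11.49 and 10.97 in fl-CCs, 10.27, 10.35 and 10.30 in mt-CCs, 10.82, 10.98 and 11.03 in fl-CCs + EV, and 8.92, 8.53 and 8.42 in fl-CCs + R175H. Its fall was 0.81 with R172H and 2.31 with R175H, and R175H cells lay 1.68 ± 0.16 below mt-CCs (adjusted p = 5.52e-06 by limma). The other Mt1 probe set was dim, with means of 5.54 in fl-CCs, 5.17 in mt-CCs, 5.31 in fl-CCs + EV and 4.90 in fl-CCs + R175H. Mt2 read 10.70, 11.30 and 10.50 in fl-CCs, 9.27, 9.33 and 9.29 in mt-CCs, 9.96, 10.09 and 10.20 in fl-CCs + EV, and 8.55, 8.54 and 8.41 in fl-CCs + R175H. It stood with R175H 0.80 ± 0.16 below mt-CCs (adjusted p = 0.00233 by limma). Mt2 was already 0.75 ± 0.16 lower in fl-CCs + EV than in fl-CCs (adjusted p = 0.011 by limma), and its 2 falls, 1.53 and 1.58, differed by 0.05 ± 0.23 (adjusted p = 0.912 by limma).

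Slc30a1, the plasma membrane zinc exporter ZnT1, whose promoter is shown above beside those of the metallothioneins, read 8.74, 8.98 and 8.93 in fl-CCs and 7.20, 7.36 and 7.32 in mt-CCs. It read 9.05, 9.21 and 9.04 in fl-CCs + EV and 6.82, 7.12 and 7.15 in fl-CCs + R175H. Mutant and control arrays did not overlap for these 3 genes. Tfrc, the transferrin receptor for iron uptake, read 10.75, 10.81 and 10.69 in fl-CCs, 8.53, 8.59 and 8.22 in mt-CCs, 10.51, 10.78 and 10.65 in fl-CCs + EV, and 9.33, 9.41 and 9.16 in fl-CCs + R175H. It had 6 member probe sets, 3 of which are array controls and were left untested. Atp7b, the copper-exporting ATPase mutated in Wilson disease, fell by 3.15 with R172H and 1.74 with R175H. Its mt-CC arrays were near background, at 4.80, 5.21 and 4.89. The list of metal and iron genes as a whole was mixed. Of its 16 measured genes that were not members, 3 were lower and 6 higher in mt-CCs, and 1 was lower and 6 higher in fl-CCs + R175H (limma). Over all genes tested, 17.7% were lower and 18.3% higher in mt-CCs, against 12.1% and 13.0% in fl-CCs + R175H.

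The 8 members of sterol and lipid synthesis fell by 0.82 to 2.10 in mt-CCs and by 0.71 to 2.07 from EV to R175H. Stard4, a carrier that moves cholesterol between membranes, read 9.82, 10.07 and 10.09 in fl-CCs, 8.86, 8.75 and 8.88 in mt-CCs, 10.36, 10.30 and 10.18 in fl-CCs + EV, and 8.44, 8.09 and 8.09 in fl-CCs + R175H. Its fall was the larger one with R175H. Msmo1, a sterol methyl oxidase, read 7.20, 6.87 and 6.60 in fl-CCs and 6.05, 5.75 and 6.01 in mt-CCs. It read 6.91, 7.03 and 7.36 in fl-CCs + EV and 5.73, 5.64 and 5.69 in fl-CCs + R175H. Every array with mutant p53 was below every control array for both genes. Cyp51, the lanosterol demethylase, read 8.75, 8.67 and 8.70 in fl-CCs, 7.79, 7.61 and 7.65 in mt-CCs, 9.0, 9.12 and 9.03 in fl-CCs + EV, and 8.10, 7.79 and 7.83 in fl-CCs + R175H. Nsdhl, the next dehydrogenase of the pathway, read 10.11, 10.42 and 10.20 in fl-CCs and 9.33, 9.40 and 9.54 in mt-CCs. It read 10.35, 10.42 and 10.35 in fl-CCs + EV and 9.62, 9.32 and 9.46 in fl-CCs + R175H. Nsdhl differed little between the mutants, by 0.04 on the log2 scale. Pmvk, the mevalonate pathway kinase, fell by 0.93 and 0.71. Fads2, a fatty acid desaturase, read 9.84, 10.05 and 10.0 in fl-CCs, 8.84, 8.89 and 8.72 in mt-CCs, 10.07, 10.01 and 9.96 in fl-CCs + EV, and 8.98, 9.13 and 8.88 in fl-CCs + R175H. Me1, the malic enzyme that supplies NADPH, read 12.05, 12.23 and 12.13 in fl-CCs and 10.21, 10.16 and 10.0 in mt-CCs. It read 12.23, 12.21 and 12.11 in fl-CCs + EV and 11.34, 11.27 and 11.23 in fl-CCs + R175H, a larger fall with R172H. Neither gene had overlapping mutant and control arrays.

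The remaining genes of the cholesterol list were lower as well. Of 19 measured genes, 5 were members and 3 were those set aside by name. Of the other 11, 7 were lower in mt-CCs than in fl-CCs and 10 were lower in fl-CCs + R175H than in fl-CCs + EV, and none was higher in either (limma, adjusted p at or under 0.05). Hsd17b7 and Sqle fell by 1.67 and 1.21 with R175H and differed by -0.16 and -0.48 in mt-CCs, the first without passing the test. Only Ebp did not pass the test in either setting. The medians over the 19 genes were -0.59 and -0.89. Fatty acid synthesis genes that were not members, 14 in all, were lower in 6 and higher in 1 with R172H, and lower in 9 and higher in none with R175H. For both lists, the shares over all genes tested were 17.7% lower and 18.3% higher with R172H. With R175H they were 12.1% and 13.0%.

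Hypoxia response members fell too, with more spread between replicates. Adm, the vasodilator adrenomedullin, read 11.33, 12.55 and 12.11 in fl-CCs, 9.65, 10.54 and 10.11 in mt-CCs, 12.76, 12.95 and 12.86 in fl-CCs + EV, and 11.73, 10.47 and 9.73 in fl-CCs + R175H. Its arrays of fl-CCs and fl-CCs + R175H overlapped. The suffix of this Adm probe set marks probes that can match other transcripts. The other Adm probe set was dim, with means of 5.21 in fl-CCs, 4.18 in mt-CCs, 5.56 in fl-CCs + EV and 4.29 in fl-CCs + R175H. Ak4, a mitochondrial adenylate kinase, read 8.52, 8.87 and 8.25 in fl-CCs, 6.78, 7.47 and 7.48 in mt-CCs, 9.16, 9.02 and 9.25 in fl-CCs + EV, and 7.60, 7.03 and 6.98 in fl-CCs + R175H. Bnip3, a mitophagy receptor, read 11.66, 12.20 and 11.93 in fl-CCs and 10.98, 11.20 and 11.24 in mt-CCs. It read 12.12, 12.26 and 12.23 in fl-CCs + EV and 11.55, 10.95 and 11.02 in fl-CCs + R175H. Plod2, a collagen lysyl hydroxylase, read 7.43, 7.90 and 7.83 in fl-CCs, 6.36, 6.91 and 7.49 in mt-CCs, 8.58, 8.69 and 8.67 in fl-CCs + EV, and 7.50, 6.79 and 6.74 in fl-CCs + R175H. In all 4 genes replicate 1 was the highest of the 3 R175H arrays and the lowest of the 3 mt-CC arrays. Whether culture density or oxygen differed between these cultures was not tested.

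Among the 20 measured hypoxia genes that were neither members nor set aside by name, R172H came with 8 lower and 3 higher, and R175H with 15 lower and 2 higher (limma). The 3 that were higher in mt-CCs were Egln3, P4ha1 and P4ha2, 3 hydroxylases, by 0.44, 0.52 and 1.00. The same 3 were lower in fl-CCs + R175H, by -2.21, -0.998 and -2.29. Among all genes tested, 17.7% were lower and 18.3% higher with R172H, and 12.1% and 13.0% with R175H.

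**Figure D3:**
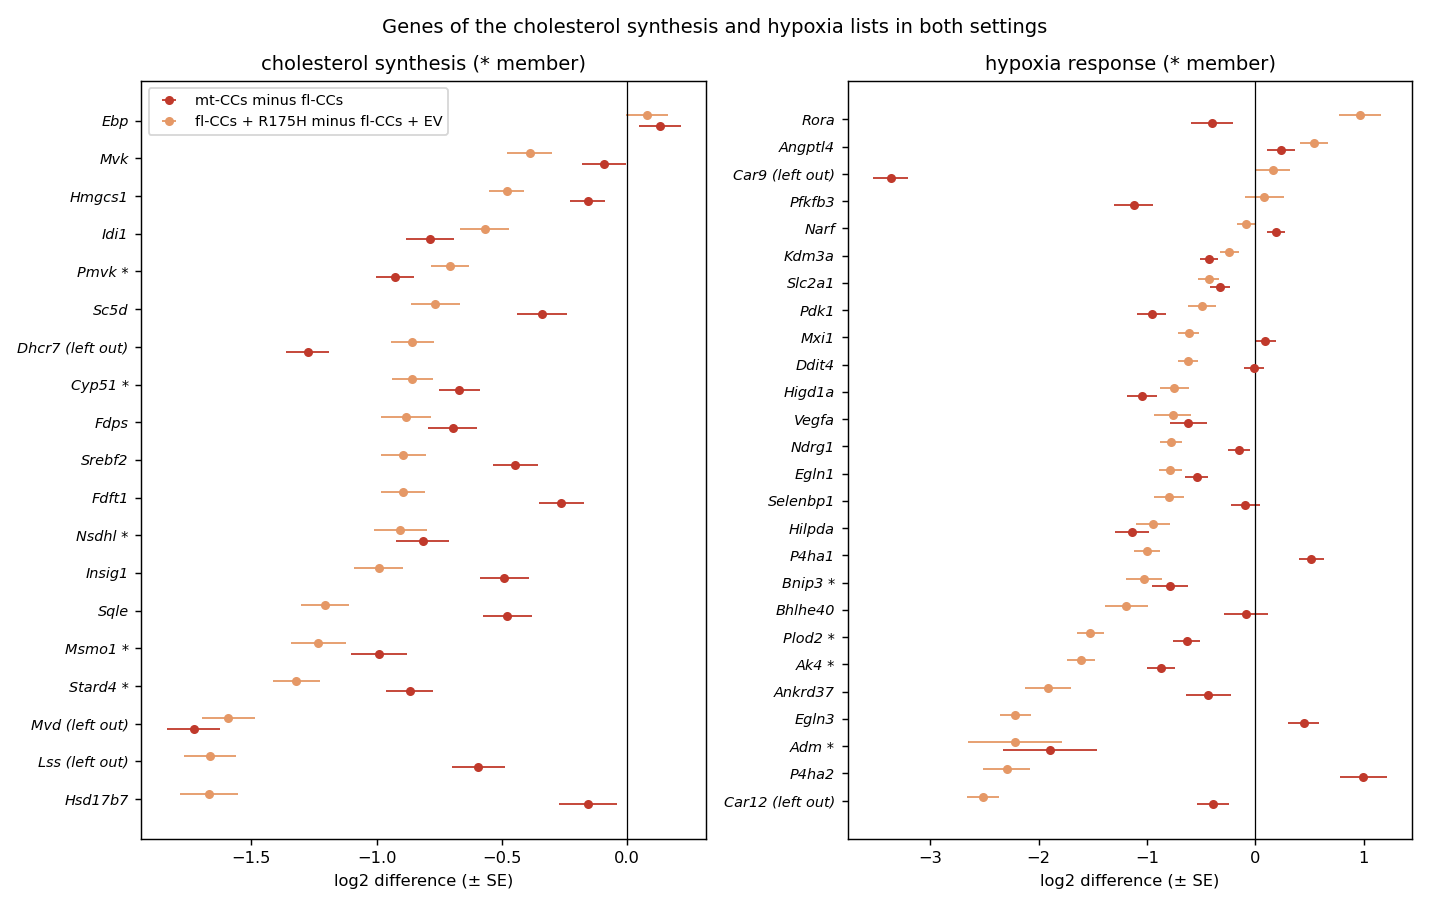
Log2 difference with its SE (horizontal axis) of each measured gene of the cholesterol synthesis list (left, 19 genes) and the hypoxia response list (right, 26 genes), for mt-CCs minus fl-CCs (red) and fl-CCs + R175H minus fl-CCs + EV (orange), each gene at its brightest probe set. Stars mark members and "left out" the genes set aside by name. On the left all genes but Ebp lie below 0 in both settings, and on the right P4ha1, P4ha2 and Egln3 lie above 0 in mt-CCs and below 0 in R175H cells.

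Growth factor receptors and cell cycle genes were also present. Fgfr4 read 6.29, 6.08 and 5.70 in fl-CCs, 4.14, 2.88 and 3.59 in mt-CCs, 7.27, 6.73 and 6.71 in fl-CCs + EV, and 5.14, 4.91 and 4.58 in fl-CCs + R175H. Fgfr3 read 8.97, 8.66 and 8.75 in fl-CCs and 6.76, 6.26 and 6.11 in mt-CCs. It read 8.31, 8.86 and 8.52 in fl-CCs + EV and 7.51, 8.0 and 8.06 in fl-CCs + R175H. Both are receptors for fibroblast growth factors, and Fgfbp1 carries these ligands out of the matrix. Fgfbp1 read 8.21, 8.10 and 8.08 in fl-CCs, 5.86, 6.25 and 6.0 in mt-CCs, 7.39, 7.18 and 7.39 in fl-CCs + EV, and 5.76, 5.95 and 6.29 in fl-CCs + R175H. Fgfr4 was under 5 in every mt-CC array, and its fall there was at least 1.02. Nrg4, an ERBB4 ligand, fell by 1.71 and 1.13.

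Ccnd2, cyclin D2 of the G1 phase, was among the genes best covered, with 6 member probe sets. The one shown read 11.54, 11.33 and 11.35 in fl-CCs, 9.89, 10.08 and 10.09 in mt-CCs, 11.68, 11.58 and 11.58 in fl-CCs + EV, and 9.78, 10.06 and 9.96 in fl-CCs + R175H. Its level with the 2 mutants differed by -0.09 ± 0.10 (adjusted p = 0.567 by limma). Of the other 5 member probe sets, the R175H cells were lower than mt-CCs at 2, and 3 did not pass. The 2 differences were -0.40 ± 0.10 (adjusted p = 0.00874) and -0.37 ± 0.12 (adjusted p = 0.0303 by limma). The member probe set shown was the dimmest in fl-CCs and had the largest falls. The brightest Ccnd2 probe set was not a member and fell by 0.56 in mt-CCs and by 0.38 from EV to R175H. Btg2, a p53 target that restrains proliferation, read 8.53, 8.83 and 8.75 in fl-CCs, 7.64, 7.89 and 7.76 in mt-CCs, 8.40, 8.35 and 8.30 in fl-CCs + EV, and 7.07, 7.43 and 7.37 in fl-CCs + R175H. Bok, a BCL2 family member, read 10.41, 10.29 and 10.19 in fl-CCs and 8.65, 8.80 and 8.61 in mt-CCs. It read 10.11, 10.22 and 10.25 in fl-CCs + EV and 9.27, 9.09 and 9.27 in fl-CCs + R175H. Of the 32 measured wild-type p53 targets that were not members, R172H came with 8 lower and 9 higher, and R175H with 11 lower and 3 higher (limma). Of all genes tested, R172H came with 17.7% lower and 18.3% higher, and R175H with 12.1% and 13.0%.

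Enzymes of membrane lipids formed a further group of 9. Atp8b1, a phospholipid flippase, read 8.81, 8.74 and 8.87 in fl-CCs, 3.12, 2.48 and 3.38 in mt-CCs, 8.26, 8.23 and 7.90 in fl-CCs + EV, and 6.69, 7.11 and 7.21 in fl-CCs + R175H, and its fall to mt-CCs was at least 3.81. The second flippase, Atp8a1, had 5 member probe sets and fell by 1.21 and 1.31. B4galt6 and St3gal5, which build glycosphingolipids, fell by 2.16 and 0.80 in mt-CCs and by 0.83 and 1.15 from EV to R175H. Acer3, a ceramidase, fell by 1.31 and 1.59. In the glutathione group, Gclc, the rate-limiting enzyme of glutathione synthesis, read 11.01, 11.16 and 11.04 in fl-CCs, 9.59, 10.14 and 10.03 in mt-CCs, 10.82, 10.81 and 10.72 in fl-CCs + EV, and 9.93, 10.18 and 10.07 in fl-CCs + R175H. Hmox1, the heme oxygenase, read 8.18, 9.41 and 8.61 in fl-CCs, 7.68, 8.16 and 7.99 in mt-CCs, 9.39, 9.32 and 9.40 in fl-CCs + EV, and 8.04, 7.92 and 8.13 in fl-CCs + R175H, so that its lowest fl-CC array stood next to its highest mt-CC array.

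Among members outside these groups, Aldh1a1, a retinal dehydrogenase, read 10.94, 10.79 and 10.75 in fl-CCs, 4.03, 4.90 and 4.90 in mt-CCs, 10.65, 10.61 and 10.47 in fl-CCs + EV, and 9.51, 9.72 and 9.62 in fl-CCs + R175H. Mpzl2, an epithelial adhesion protein counted with the desmosomal group, read 9.12, 8.58 and 8.76 in fl-CCs, 2.57, 3.0 and 2.50 in mt-CCs, 8.93, 8.83 and 8.86 in fl-CCs + EV, and 7.14, 7.16 and 7.56 in fl-CCs + R175H. For both genes the 2 controls lay close together, R175H cells somewhat below them and mt-CCs near background. Their falls to mt-CCs were at least 5.83 and 3.82 at the probe sets shown. Mpzl2 had 3 member probe sets, and the brightest had means of 10.62 in fl-CCs and 2.62 in mt-CCs. Its bound is therefore larger there. Smim22, a small membrane protein read by a probe set whose suffix marks probes that can match other transcripts, read 8.61, 9.34 and 9.35 in fl-CCs and 3.0, 3.49 and 2.95 in mt-CCs. It read 7.73, 7.82 and 7.57 in fl-CCs + EV and 6.76, 7.29 and 6.89 in fl-CCs + R175H, and its fall to mt-CCs was at least 4.10. Tesc, a calcium-binding regulator of proton exchange, read 8.55, 8.94 and 8.95 in fl-CCs, 6.90, 6.82 and 7.16 in mt-CCs, 8.05, 8.46 and 8.21 in fl-CCs + EV, and 6.04, 6.16 and 6.41 in fl-CCs + R175H. It was lower with R175H than with R172H, by -0.76 ± 0.15 (adjusted p = 0.00192 by limma).

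Dmd, the dystrophin gene, read 8.04, 8.32 and 8.07 in fl-CCs, 4.20, 4.61 and 4.50 in mt-CCs, 8.54, 8.57 and 8.45 in fl-CCs + EV, and 6.22, 6.18 and 6.58 in fl-CCs + R175H. Pkhd1l1, a relative of the polycystic kidney gene fibrocystin, read 6.13, 5.97 and 6.20 in fl-CCs and 4.31, 3.82 and 3.55 in mt-CCs. It read 5.94, 6.77 and 6.05 in fl-CCs + EV and 4.39, 3.97 and 3.91 in fl-CCs + R175H, so that both mutant groups were near background and the 2 falls at least 1.10 and 1.26. The fall of Dmd in mt-CCs was at least 3.14. Depp1, a FOXO-induced autophagy regulator, read 10.30, 10.80 and 10.67 in fl-CCs, 6.14, 6.30 and 6.09 in mt-CCs, 9.18, 9.17 and 9.08 in fl-CCs + EV, and 7.51, 7.49 and 7.74 in fl-CCs + R175H. Rec8, the meiotic cohesin subunit, read 6.76, 6.16 and 6.28 in fl-CCs and 4.77, 4.04 and 3.46 in mt-CCs. It read 7.87, 7.80 and 7.83 in fl-CCs + EV and 4.33, 5.15 and 4.57 in fl-CCs + R175H. For Depp1 and Rec8 the empty vector cells lay apart from fl-CCs, below them for Depp1 and above them for Rec8. Rec8 was under 5 in every mt-CC array, a fall of at least 1.40.

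The last genes shown are those with large tested differences. Fam81a read 9.54, 9.83 and 9.65 in fl-CCs, 5.07, 6.06 and 5.22 in mt-CCs, 8.21, 8.39 and 7.60 in fl-CCs + EV, and 6.93, 6.80 and 6.19 in fl-CCs + R175H. Phactr2, a regulator of actin and phosphatase 1, read 6.59, 6.44 and 6.58 in fl-CCs, 4.33, 3.96 and 4.11 in mt-CCs, 8.02, 8.19 and 7.82 in fl-CCs + EV, and 5.46, 6.03 and 5.76 in fl-CCs + R175H. Both differed between the 2 controls, in opposite directions. Clmn, an actin-binding membrane protein, read 8.10, 8.26 and 7.75 in fl-CCs and 7.39, 7.19 and 7.39 in mt-CCs. It read 8.66, 8.71 and 8.46 in fl-CCs + EV and 6.68, 6.11 and 6.50 in fl-CCs + R175H. The uncharacterized gene 1700016K19Rik read 5.93, 6.81 and 6.40 in fl-CCs, 3.86, 3.75 and 3.73 in mt-CCs, 7.63, 7.90 and 7.78 in fl-CCs + EV, and 5.31, 5.64 and 6.03 in fl-CCs + R175H. In mt-CCs Phactr2 fell by at least 1.54 and 1700016K19Rik by at least 1.38.

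**Figure D4:**
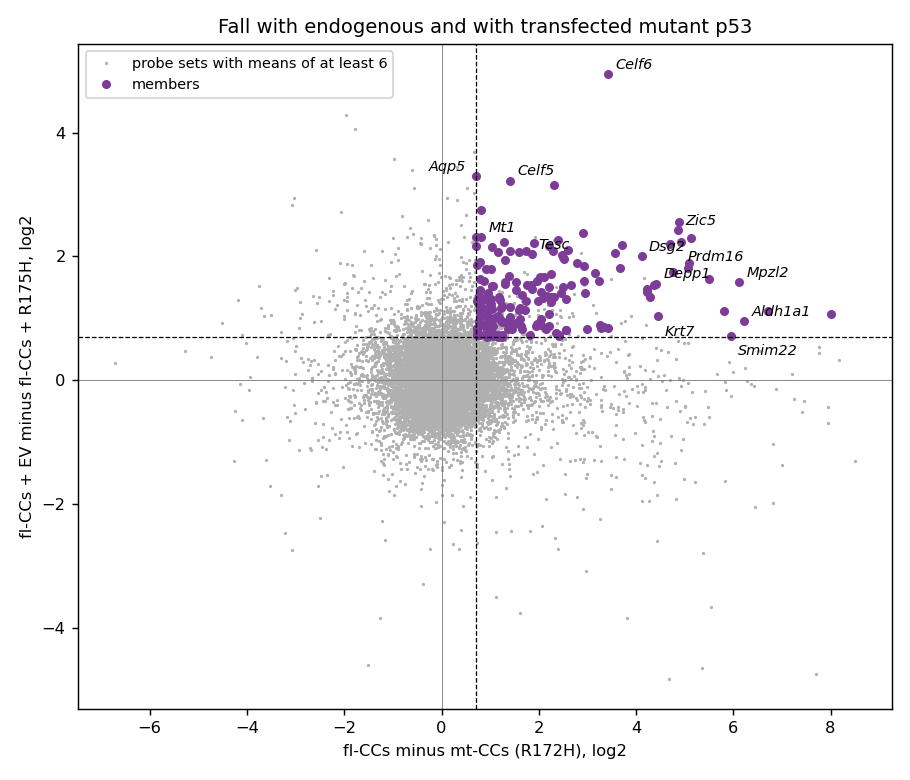
Fall with endogenous R172H (horizontal axis, fl-CCs minus mt-CCs, log2) against fall with transfected R175H (vertical axis, fl-CCs + EV minus fl-CCs + R175H, log2) for the 18245 probe sets with 1 symbol and both control means at or above 6 (gray) and the members (purple). Dashed lines mark the threshold of 0.7. All falls are plotted as measured. Celf6 lies highest at 4.94, with a bound of 4.03 because it was under 5 in every R175H array. Aqp5 sits at the left edge at 0.71. Aldh1a1 and Mpzl2 lie beyond 6 on the horizontal axis, with bounds of 5.83 and 3.82 because both were under 5 in mt-CCs.

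The differences that chose the members leave little room for single arrays to overlap, and the next counts describe the members only. In 118 of the 120 genes every fl-CC array exceeded every mt-CC array, against 33.1% of the 18245 probe sets at this level. In 117 every fl-CC array exceeded every R175H array, against 26.1%, and in 118 every EV array exceeded every R175H array, against 30.8%. The exceptions were Sh3d21 and Plod2 for the first comparison, Adm, 1700016K19Rik and Plod2 for the second, and Chtf8 and Slc45a3 for the third. At the threshold, the members just inside were Hmox1, Hpn and 1 of the Clmn probe sets, with a smallest difference of 0.702, 0.703 and 0.705. The probe sets just outside were Rab26, Coro2a and Rictor, with 0.6972, 0.6986 and 0.6997.

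When members were chosen again from 2 of the 3 replicates, the replicate that was held out gave a measure the choice had not used, although the arrays had been normalized together. Here and below, replicates were cultures of the same lines. These readings therefore describe only how arrays of a line repeat. Chosen without replicate 1, 192 probe sets qualified and 119 of them met all 3 differences in replicate 1 alone, which is 62.0% against 1.10% of all probe sets at this level. For replicate 2 it was 121 of 167, or 72.5% against 1.18%. For replicate 3 it was 115 of 186, or 61.8% against 0.988%. All 3 differences were above 0 in 181, 162 and 181 of these probe sets, against 21.9%, 21.5% and 22.2% of all at this level. Other probe sets for the same genes were read in the same arrays. Of 59 probe sets that target a member gene, were not members and were at or above 6 in both controls, 55 had all 3 differences above 0, against 22.0% of all 18245 probe sets at this level. The 4 exceptions were 1 probe set of Neat1, 1 of Gng13 and 2 of Epb41l5. That of Neat1, a long noncoding RNA, was brighter than its member probe set and had means of 11.9 in fl-CCs and 12.5 in mt-CCs.

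The remaining 3 contrasts compared the 2 controls, the 2 mutant groups and the sizes of the 2 falls. Each of them is 1 of the differences that chose the members minus another, so none is independent of that choice. The adjusted p-values therefore describe single genes, and the counts among members, set beside those among all probe sets, describe the members as chosen. Of the 18245 probe sets, 2158 met the limit from fl-CCs to mt-CCs, 682 that from fl-CCs to R175H cells and 971 that from EV to R175H cells. Falls with R172H were thus more often large over the whole array, and a choice that requires all 3 can by itself yield more members with the larger fall in mt-CCs. The 2 controls came first. In fl-CCs + EV against fl-CCs, 29 of the 169 tested member probe sets were higher and 13 lower (limma, adjusted p at or under 0.05 over 45037 probe sets). These are 17.2% and 7.69%, against 6.45% higher and 5.66% lower among all probe sets and 10.7% and 9.60% among those at or above 6 in both controls. By gene, 23 were higher, 10 lower and 87 passed in neither direction, and the median difference was 0.07. Celf5 was highest, at 1.73 ± 0.26 (adjusted p = 0.00116), followed by Celf6, by Phactr2 at 1.47 ± 0.15 (adjusted p = 6.33e-05), by Rec8 at 1.43 ± 0.29 (adjusted p = 0.00719) and by 1700016K19Rik at 1.39 ± 0.21 (adjusted p = 0.00104). Fam81a was lowest, at -1.60 ± 0.28 (adjusted p = 0.00256). Depp1 stood at -1.45 ± 0.13 (adjusted p = 2.08e-05), Smim22 at -1.39 ± 0.21 (adjusted p = 0.00124), Cftr at -1.21 ± 0.24 (adjusted p = 0.00652) and Muc5b at -1.12 ± 0.17 (adjusted p = 0.00121). In these 5 genes part of the distance between fl-CCs and fl-CCs + R175H was therefore already present with the empty vector. These cells differed from fl-CCs in vector, selection and G418, which cannot be told apart.

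**Figure D5:**
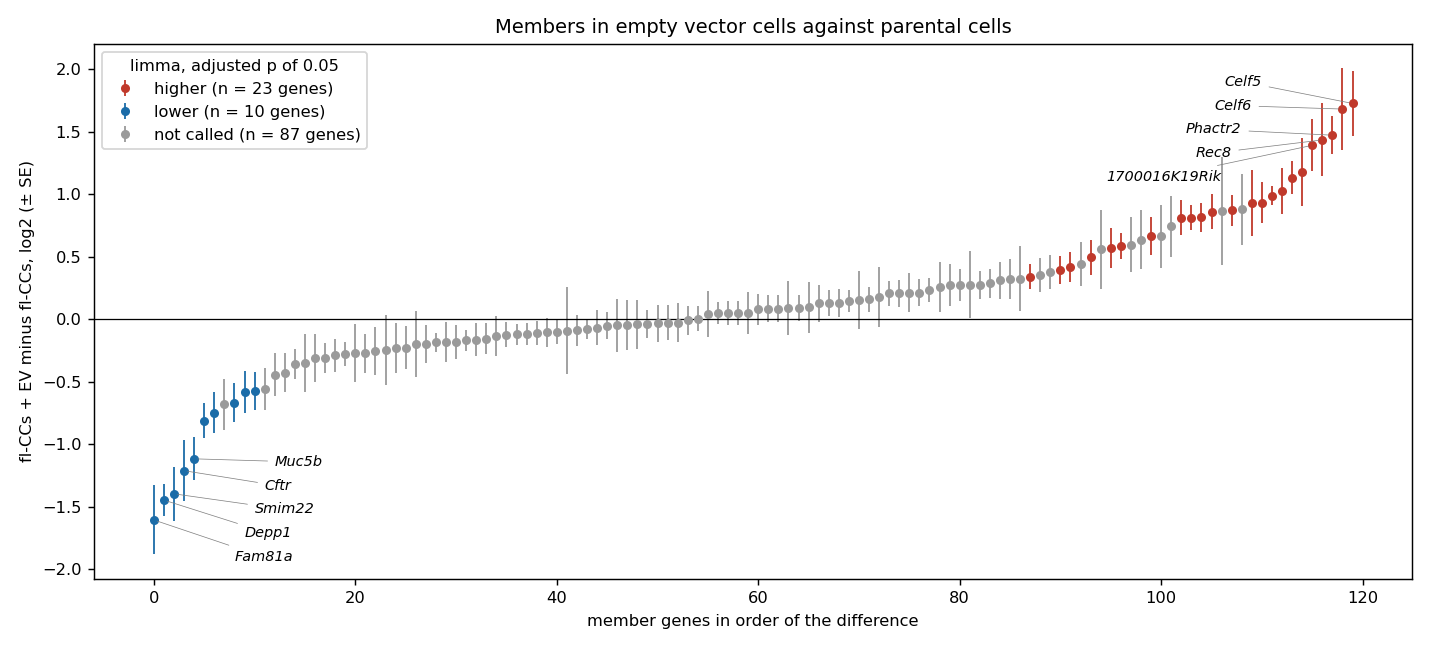
Difference between fl-CCs + EV and fl-CCs (vertical axis, log2, with SE from the limma fit) for the 120 member genes in order of the difference (horizontal axis). Red and blue mark the 23 genes higher and the 10 lower at an adjusted p of 0.05, and gray the other 87. Celf5 and Celf6 lie at the upper end and Fam81a and Depp1 at the lower end.

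The levels of the 2 mutant groups were compared next. In fl-CCs + R175H against mt-CCs, 78 of the 169 member probe sets were higher and 21 lower, or 46.2% and 12.4%. The shares were 16.3% and 16.9% among all probe sets, and 27.8% and 25.6% among those at or above 6 in both controls. By gene, 51 were higher, 12 lower and 57 passed in neither direction. In the members measured above 5 in some mt-CC array, the R175H cells stood highest over mt-CCs for Krt23, by 4.27 ± 0.18, then for Krt7 by 3.50 ± 0.10, Plagl1 by 2.87 ± 0.32, Pls1, an actin bundler of the brush border, by 2.42 ± 0.08 and Perp by 2.25 ± 0.08 (limma, adjusted p from 1.37e-10 to 1.82e-05). In Krt23 and in Plagl1, 2 of the 3 mt-CC arrays were under 5. Where every mt-CC array was under 5, the distance is a lower bound and has no rank, at least 4.62 for Aldh1a1, 2.29 for Mpzl2, 2.0 for Atp8b1, 1.98 for Smim22 and 1.90 for Prss35, with adjusted p-values by limma between 3.84e-10 and 4.14e-08. Those lower with R175H were led by Aqp5 at -2.14 ± 0.18 (adjusted p = 1.39e-06), Mt1 and Clmn, the latter at -0.89 ± 0.16 (adjusted p = 0.000812). Mt2 came next, and Lhx9 stood at -0.77 ± 0.27 (adjusted p = 0.0477), which did not pass when any of 4 single arrays was left out. In the replicate held out of the choice, R175H cells exceeded mt-CCs in 136 of 192, 118 of 167 and 135 of 186 chosen probe sets, or 70.8%, 70.7% and 72.6%, against 49.9%, 51.7% and 51.5% of all at this level. The other replicates had used the same differences.

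The size of the 2 falls was compared in a further test, the effect of R172H over fl-CCs minus the effect of R175H over fl-CCs + EV. By this test 69 member probe sets fell further in mt-CCs and 22 fell further in fl-CCs + R175H, or 40.8% and 13.0%. Among all probe sets the same directions held 13.1% and 13.6%, and among those at or above 6 in both controls 23.3% and 20.9%. By gene the counts were 45 and 17, with 58 in neither. Among members measured above 5 in some array of each group, Krt7 fell further in mt-CCs by -3.41 ± 0.15, Krt23 by -3.24 ± 0.26, Depp1 by -2.85 ± 0.18, Fam81a by -2.79 ± 0.39 and Pls1 by -2.59 ± 0.12, with adjusted p-values by limma from 7.12e-09 to 0.000186. Aldh1a1, Smim22, Atp8b1 and Mpzl2, all under 5 in every mt-CC array, had measured differences of -5.26 ± 0.27, -5.23 ± 0.30, -4.69 ± 0.29 and -4.54 ± 0.24. From the level of 5 these were at most -4.87, -3.38, -2.68 and -2.23. Aqp5 fell further with R175H by 2.58 ± 0.25 (adjusted p = 8.36e-06), Lhx9 by 1.95 ± 0.38 (adjusted p = 0.00232), Celf5 by 1.82 ± 0.37 (adjusted p = 0.00285), Celf6 by 1.52 ± 0.46 (adjusted p = 0.0278, not passing without any of 4 single arrays) and Mt1 by 1.50 ± 0.23 (adjusted p = 0.000347). For Celf5 and Celf6 the mutant groups themselves differed by only -0.09 ± 0.26 (adjusted p = 0.83) and 0.16 ± 0.33 (adjusted p = 0.766 by limma). This test equals the EV offset from fl-CCs minus the distance of R175H cells from mt-CCs, so nearly all of it was the offset of 1.73 and 1.68 in these genes. Celf6 was under 5 in every array of both mutant groups, so the levels give no bound on the difference of its falls. Its 0.16 is likewise a difference of values near background. For Lhx9 the offset was 1.18 and the mutant groups differed by -0.77. In the replicate held out of the choice, 39.1%, 32.3% and 33.9% of the chosen probe sets fell further with R175H and the rest further in mt-CCs, against 48.3%, 47.1% and 47.4% with R175H among all at this level.

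By role, 6 of the 7 desmosomal and keratin genes, 7 of the 13 transcription factors and 4 of the 6 secretory and protease genes fell further in mt-CCs. The share was 37.5% over all 120 member genes and 23.3% over probe sets at or above 6 in both controls. The roles were assigned after the values had been seen, so these counts only describe the groups. For En1, under 5 in every mt-CC array, the levels give no bound on the difference of the falls. Of the 8 genes of sterol and lipid synthesis 1 fell further in each setting at the probe set shown, Me1 in mt-CCs and Stard4 with R175H. At its other member probe set Gpd1, also of this group, fell further in mt-CCs by -0.71 ± 0.14 (adjusted p = 0.0027 by limma). The other member probe sets of Stard4 gave 0.45 ± 0.13 (adjusted p = 0.0234) and 0.45 ± 0.17 (adjusted p = 0.0667, not passing, both by limma). None of the 4 hypoxia genes passed this test at the probe set shown, with SEs of up to 0.61, for Adm. The other two member probe sets of Ak4 did, further with R175H by 0.74 ± 0.18 (adjusted p = 0.00962) and 1.12 ± 0.29 (adjusted p = 0.0129 by limma). Of the 5 metal genes, Mt1 and Slc30a1 fell further with R175H, and Tfrc and Atp7b with R172H. In 39 of the 120 genes none of the 3 tests passed at the probe set shown, and in 34 of them none passed at any member probe set. The other 5 were Ccnd2, Acer3, Nrg4, Ak4 and Gclc. At 1 Acer3 probe set the R175H cells exceeded mt-CCs by 0.51 ± 0.10 (adjusted p = 0.00213 by limma). Among the 34 were Zic2, Pkhd1l1, Dsc2, Neat1 and Abhd6, and for Abhd6, a monoacylglycerol lipase, the difference between the falls was 0.02 ± 0.16 (adjusted p = 0.963 by limma).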

How the data were processed

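The authors hybridized biotin-labeled cDNA from 12 cultures, 3 per group, to Affymetrix mouse expression arrays and normalized them with RMA, whose version is not given in the sources used here. The deposited values are on a log2 scale, 1 per probe set. RMA makes the arrays share 1 distribution, so a shift of all transcripts cannot be seen, and low values are compressed. Arrays give no counts, so precision rests on the 3 arrays per group.

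Gene symbols came from the platform annotation: of 45101 probe sets, 34958 had 1 symbol, 932 several and 9211 none. Members met the rule given in the report. A gene with several member probe sets was shown by the tested one with the highest smallest-of-3 difference, and list genes by their brightest probe set. The members, the 30 gene lists and the tests were chosen with earlier results of these data known. The grouping by role, and the metal and sterol elements searched in promoters, were chosen after the members' values were seen. Values in every array are given for the 10 genes with the highest smallest-of-3 difference, the 5 highest in each difference of the rule, the 5 in each direction of each tested contrast, and up to 4 members of each list. The order among genes above 5 in mt-CCs, which adds Pls1, and the readings in held-out replicates of the tested contrasts were chosen after the values were seen. Of the 30 lists, 12 held a member and 30 member genes were in one.

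The tested contrasts were fitted with limma 3.58.1 in R 4.3.3 over all 12 arrays after 64 control probe sets had been left out, with Benjamini-Hochberg adjustment over 45037 probe sets and a threshold of 0.05. The fit was tested on simulated data. Alternatives were other thresholds, floors, normalizations, filters, moderation, array weights, a replicate block and leaving out arrays. Promoters came from RefSeq (GRCm38.p6).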

Additional observations from a re-analysis of the deposited data

Results flagged for a closer look

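The effects of endogenous R172H and of transfected R175H differed by a test of the difference itself in 91 member probe sets. Of these, 69 fell further in mt-CCs and 22 fell further in fl-CCs + R175H (limma, adjusted p at or under 0.05). The differences of the falls on the log2 scale were -5.26 for Aldh1a1, -5.23 for Smim22, -4.69 for Atp8b1, -4.54 for Mpzl2 and -3.41 for Krt7, all further in mt-CCs. The first 4 genes were under 5 in every mt-CC array, and from that level their differences were at most -4.87, -3.38, -2.68 and -2.23. They were 2.58 for Aqp5, 1.95 for Lhx9, 1.82 for Celf5, 1.52 for Celf6 and 1.50 for Mt1, all further with R175H. For Celf5, Celf6 and Lhx9 the empty vector cells also lay above fl-CCs, by 1.73, 1.68 and 1.18, and for Smim22 below them, by -1.39. The difference of the falls equals this offset minus the distance of R175H cells from mt-CCs, which was -0.09, 0.16, -0.77 and 3.83 in these 4 genes. For Celf5 and Celf6 it was thus nearly all offset. Celf6 was under 5 in every array with mutant p53, so the levels give no bound on the difference of its falls. Each of these contrasts is 1 of the differences that chose the members minus another.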

How the results depend on the processing

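The 169 tested and 3 control member probe sets became 333 in all with a threshold of 0.5, 78 with a threshold of 1 and 100 when the brightest probe set stood for each gene, and lay between 165 and 192 when single arrays or replicates were left out. The median differences then lay between 1.61 and 1.75, 1.16 and 1.21, and 1.28 and 1.33. At an adjusted p of 0.01, 18 members were higher and 7 lower in fl-CCs + EV than in fl-CCs, 11 were lower in fl-CCs + R175H than in mt-CCs, and 12 fell further with R175H. With a log2 difference of at least 0.5 also required, 13 were lower in fl-CCs + R175H than in mt-CCs. Leaving out 1 array at a time gave 20 to 26 higher and 9 to 15 lower for EV, 73 to 79 higher and 15 to 18 lower between the mutants, and 17 to 24 and 60 to 68 for the difference of the falls. Over the same settings 13 to 15 cholesterol, 11 to 13 hypoxia, 6 to 7 metal and 33 to 36 epithelial genes were lower in mt-CCs, and 18, 19 to 20, 5 and 9 to 11 in fl-CCs + R175H. These list settings were chosen after seeing the data. Of the 314 alternative values of these summaries, 306 stayed within 1.5 times the value reported or within the spread. Of the 560 values for single genes, 547 kept their direction and their call. The 13 others lost the call, 7 for Lhx9 between the mutants and 6 for Celf6 in the difference of the falls. Without mt-CC replicate 3, Lhx9 stood at -0.56, and without mt-CC replicate 1, Celf6 stood at 1.17, both no longer past the threshold. None reversed. Samples of the same replicate number did not deviate together, with correlations of their deviations between -0.09 and 0.06. With the replicate number as a block, 28 members were higher and 11 lower for EV, 79 and 21 between the mutants, and 22 and 70 for the difference of the falls. Dim signals limit the falls of the 18 genes under 5 in mt-CCs, which are only known to be at least the distance from the fl-CC mean to 5.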
